A study of Sus scrofa with 32 samples.

Results

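Antibody-secreting cells (ASCs) of the pig ileum were described as the barcodes whose transcriptome was dominated by JCHAIN, which encodes the joining chain that links IgA and IgM into polymers. A barcode was a member when it held at least 1250 unique molecular identifiers (UMIs), at least 550 genes, at most 12.5% of UMIs from mitochondrial protein-coding genes, and at least 10% of its UMIs from JCHAIN. Of the 35386 ileal barcodes that passed the first 3 filters, 294 were members. They were thus chosen by their measured JCHAIN share, and JCHAIN itself is described without a test. Single-cell RNA sequencing had been run on lymphocyte-enriched suspensions from 2 mixed-breed pigs aged 7 weeks, pig 1 labelled female and pig 2 labelled male. For each pig the labels gave 1 library of ileum dissected to hold only Peyer's patch regions (PP), 1 without such regions (non-PP), 1 of the full cross section (whole ileum) and 1 of peripheral blood mononuclear cells (PBMC). The labels name no engineered allele and no treatment. Passing barcodes summed to 12373348 UMIs in the shallowest library, non-PP pig 2, and to 32247619 in the deepest, PBMC pig 2.

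Plasma cells and their dividing precursors, plasmablasts, arise from activated B cells. BLIMP-1, encoded by PRDM1, shuts down the B cell program, and XBP1 expands the endoplasmic reticulum (ER), where immunoglobulin chains are translocated, glycosylated, folded and paired before export. In the gut most of these cells make IgA, which JCHAIN joins into dimers that the epithelium carries into the lumen.

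The library labelled whole ileum pig 1 went against its label. DDX3Y, a Y-linked RNA helicase, had 3208 UMIs in its passing barcodes, whereas PP, non-PP and PBMC of the same pig held 5, 1 and 0 UMIs and the 4 libraries of pig 2 held between 1687 and 4689. Of those 3208 UMIs, 26 were in its members. This library contributed 43 members to the pig 1 sums, which therefore may not hold 1 animal alone. Counts of called genes, in total and by gene list, are given with it and again without it. Without it, pig 1 levels in the members given below moved from 4.41 to 4.997 UMIs per 10000 named UMIs for POU2AF1, 13.8 to 13.2 for TXNDC5, 40.2 to 35.4 for HSPA5, 26.4 to 26.5 for HERPUD1, 0.935 to 1.05 for MS4A1, 4.01 to 3.73 for CD79A and 37.2 to 40.8 for CD74. The pig 1 level of CD79B given below was not recalculated. It holds 56 UMIs from this library, 130 from PP and 2 from non-PP. Across the 8 libraries 1319 of 47295 distinct barcode sequences passed in more than 1 library. The barcodes of 18 members also passed elsewhere, but none of those other barcodes held 1% JCHAIN.

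The members were rich in UMIs for their number of genes. They held a median of 7929 UMIs (1909 to 20032) and 1087.5 genes (552 to 2531), with 1.75% mitochondrial UMIs, against median UMIs of 3051.5 in JCHAIN-low B barcodes and 2537.5 in T barcodes. JCHAIN took a median of 18.0% of a member's UMIs, from 10.0% to 35.4%, and 18.4% of all 2513600 UMIs of the members pooled. Genes without a symbol took a further 50.7%, of which 4 identifiers made 45.2 percentage points. The same 4 identifiers held 19.99% of UMIs in JCHAIN-intermediate barcodes, 1.19% in JCHAIN-low B barcodes and 0.0713% in T barcodes. All other named genes together made up 31.0%. Levels below are therefore UMIs per 10000 UMIs of named genes, leaving out JCHAIN and the only immunoglobulin gene with a symbol, IGLV2-33, which had 0 UMIs in the members, and they were not divided by gene length because each molecule is counted once.

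**Figure D1:**
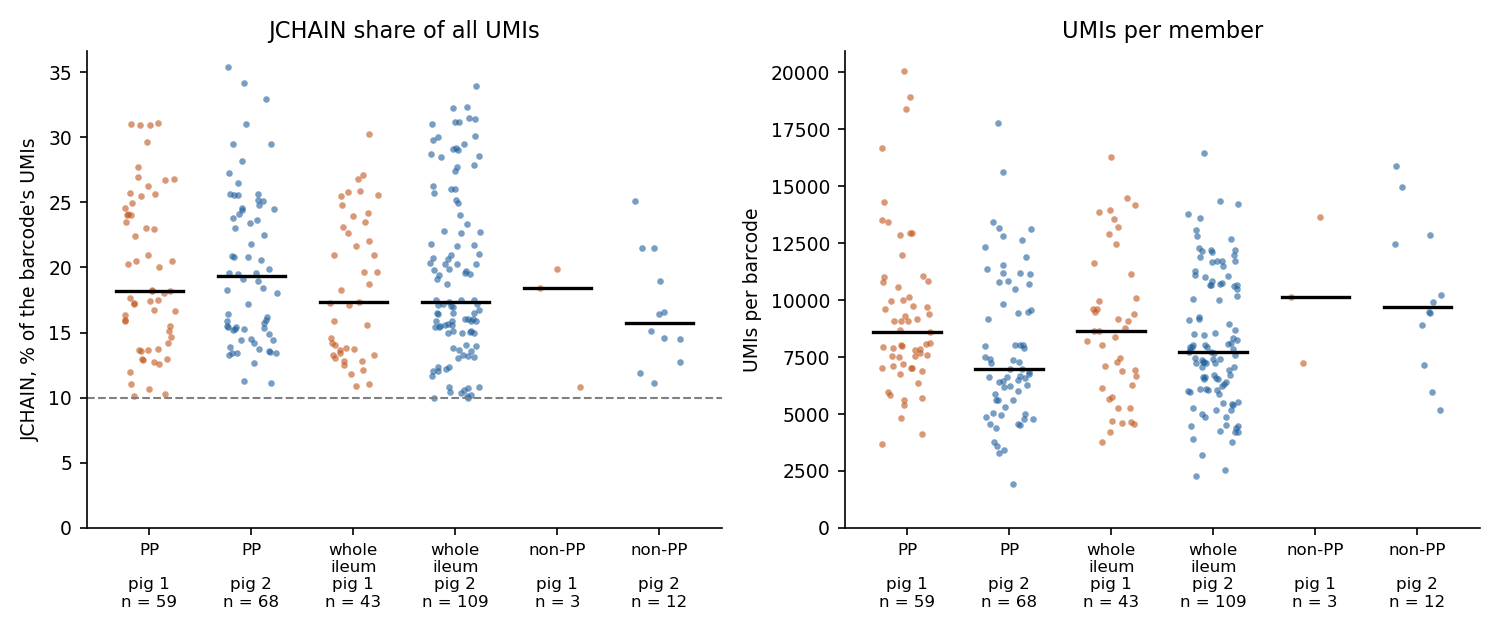
JCHAIN share of UMIs (left, percent) and UMIs per barcode (right) of each of the 294 members by library, with 1 point per member and a black line at the library median. The dashed line marks the 10% threshold that chose the members, and the 6 libraries overlap widely on both axes.

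Median JCHAIN share by library ranged from 15.8% in non-PP pig 2 to 19.3% in PP pig 2. The threshold cut through a continuous range. The 16 barcodes with 9% to under 10% JCHAIN held 13.0 XBP1, 3.88 TNFRSF17 and 1.34 MS4A1 UMIs per 10000 named UMIs. The 15 barcodes with 10% to under 11% held 10.5, 4.48 and 2.99. Among ileal barcodes of at least 500 UMIs, a further 42 reached 10% JCHAIN but missed a filter, and shallower barcodes were not counted. Of these, 41 had too few genes and 18 missed only that limit.

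To ask where the cells were found, the share of members among passing barcodes was compared between dissections. PP libraries held 59 of 7337 barcodes (0.804%, exact binomial 95% interval 0.613 to 1.04%) in pig 1 and 68 of 6872 (0.990%, 0.769 to 1.25%) in pig 2. Non-PP libraries held 3 of 3908 (0.0768%, 0.0158 to 0.224%) and 12 of 3776 (0.318%, 0.164 to 0.554%). Whole ileum held 43 of 5789 (0.743%) and 109 of 7704 (1.41%). The mean was 0.897% ± 0.131 in PP against 0.197% ± 0.170 in non-PP (SD, n = 2 pigs each), a difference of 0.700 percentage points in the same direction in both pigs, but the two-sided exact permutation test gave p = 0.333, the smallest value that 2 against 2 libraries allow. The direction depended on the denominator. Among B lineage barcodes (JCHAIN-high, JCHAIN-intermediate and JCHAIN-low B), the members were 1.63% and 1.90% in PP and 8.82% (3 of 34) and 15.8% (12 of 76) in non-PP, a PP minus non-PP difference of -10.5 points (exact permutation p = 0.333). JCHAIN-low B barcodes numbered 3508 and 3454 in the PP libraries but 22 and 49 in the non-PP libraries. Intervals cover counting error only.

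The label was checked first with XBP1 and PRDM1, which the rule did not use. XBP1, the transcription factor that builds the secretory apparatus, was detected in 282 of 294 members (95.9%), against 22.9% of JCHAIN-low B barcodes and 3081 of 12840 T barcodes at median depths of 2358.5, 2583.5 and 2185 named UMIs. XBP1 was also detected in 91.9% of JCHAIN-intermediate barcodes, so its detection did not set the members apart from these. Its level in the members was 19.4 and 18.5 UMIs per 10000 in PP pigs 1 and 2, 19.2 and 14.4 in whole ileum, and 9.67 and 14.6 in non-PP. Every library stood above the highest JCHAIN-low B level, 1.06 in PP pig 2. PRDM1 was detected in 119 members (40.5%), against 3.25% of JCHAIN-low B and 9.65% of T barcodes. Its level was 3.23 and 2.25 in PP, 2.66 and 1.83 in whole ileum, 1.93 in non-PP pig 1 and 0.256 in non-PP pig 2, where it rested on 1 UMI. Apart from that last library the members stood above every JCHAIN-low B and T library. In non-PP pig 2 PRDM1 was also below the level of near-empty barcodes of up to 50 UMIs (0.787), and it was detected in 47.3% of JCHAIN-intermediate barcodes, so it did not set the members apart from these. Both XBP1 and PRDM1 had a UMI in 113 of the 294 members, and of these markers only XBP1 stood above JCHAIN-low B and near-empty barcodes in every library.

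**Figure D2:**
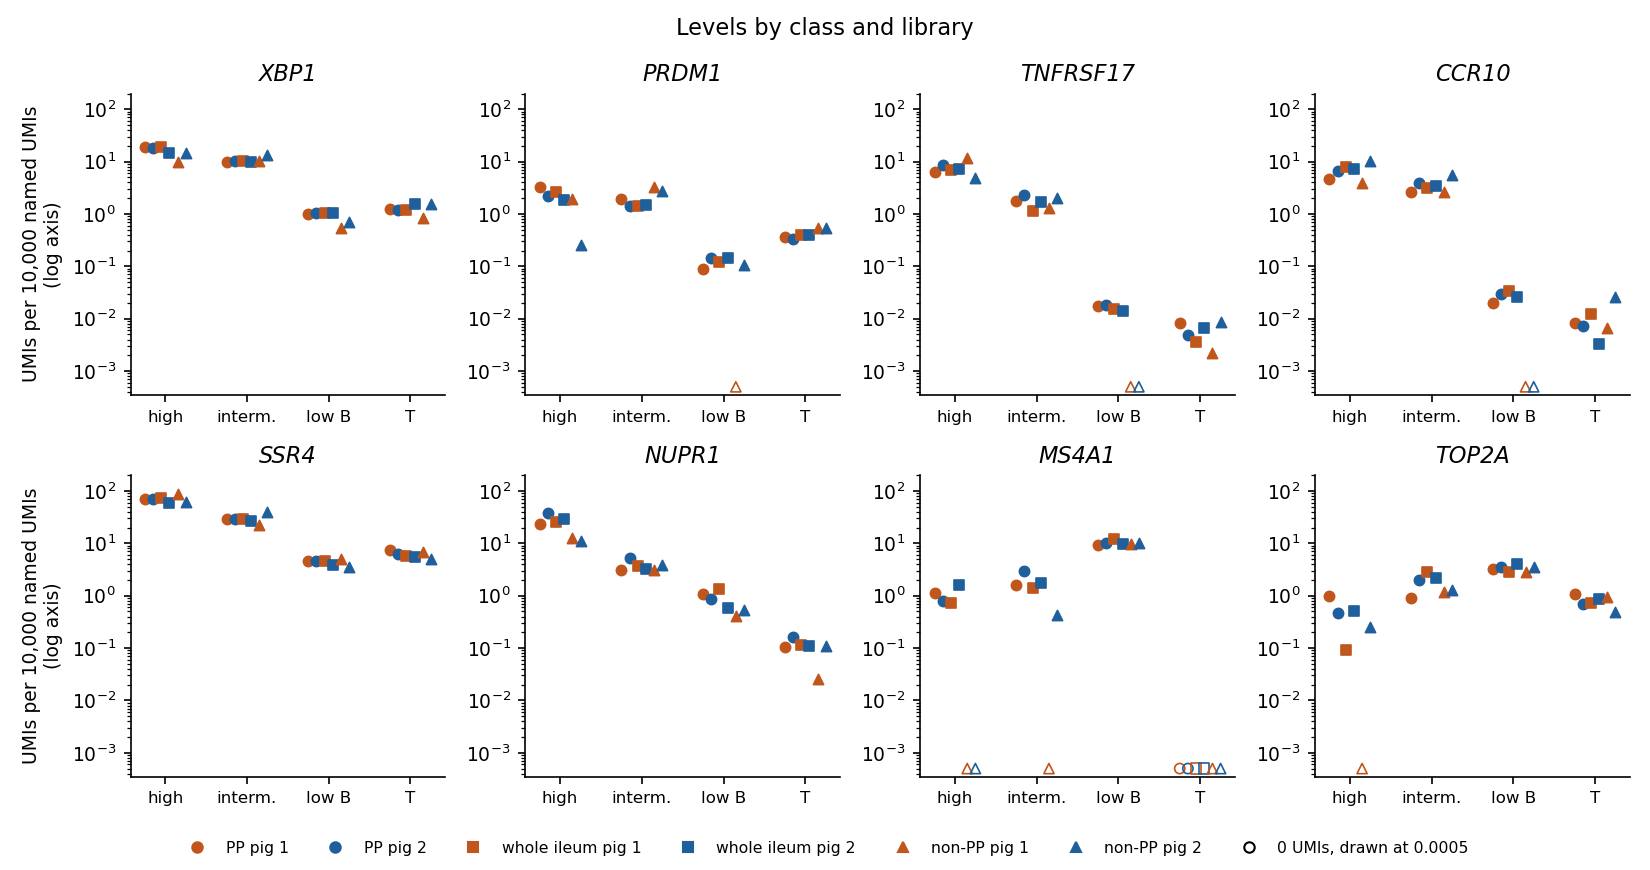
Levels of 8 genes (UMIs per 10000 named UMIs, log axis) in JCHAIN-high, JCHAIN-intermediate, JCHAIN-low B and T barcodes, with 1 point per ileal library and open points for 0 UMIs. TNFRSF17, CCR10, SSR4 and NUPR1 are highest in the JCHAIN-high barcodes of every library, as is XBP1 except in non-PP pig 1, while MS4A1 and TOP2A are highest in the JCHAIN-low B barcodes. MS4A1 was among the genes used to choose the JCHAIN-low B and T barcodes, so its pattern there follows from that choice.

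Members were then compared with the 13316 JCHAIN-low B barcodes, which held under 1% JCHAIN, at least 2 of a gate set of 4 B cell genes that included CD79A, CD79B and MS4A1, and no CD3E. Counts were summed per pig and class and tested with edgeR's quasi-likelihood test with Benjamini-Hochberg adjustment, and a gene was called at an adjusted p below 0.05 with a log2 fold change beyond 1. Of 10102 genes 2230 (22.1%) were called, 1035 (10.2%) higher and 1195 (11.8%) lower in the members, around a median log2 fold change of -0.22. Of 16 ASC identity genes 12 were higher and 0 lower, with a median log2 fold change of 3.36. The highest was TNFRSF17, the BCMA receptor on which plasma cell survival depends. It had 6.40 and 8.48 UMIs per 10000 in PP, 6.96 and 7.13 in whole ileum and 11.6 and 4.87 in non-PP. In JCHAIN-low B barcodes no library exceeded 0.0184. Its log2 fold change was 8.73 (SE 0.23, adjusted p = 2.69e-09). TNFRSF17 UMIs were found in 74.1% of members and 0.132% of T barcodes.

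The other receptors and regulators of the list followed with smaller differences. SDC1, the syndecan known as CD138, rose by a log2 fold change of 5.63 (SE 0.25), and MZB1, an ER cochaperone of B lineage cells, by 4.62 (SE 0.15). MZB1 was the most abundant gene of the list, between 93.9 and 137 UMIs per 10000 in the members of the 6 libraries. PRDM1 rose by 4.21 (SE 0.24), XBP1 by 4.04 (SE 0.17), TNFRSF13B (TACI) by 3.97 (SE 0.25), SLAMF7 by 2.93 (SE 0.21), IRF4 by 2.84 (SE 0.18) and CD38 by 2.09 (SE 0.19). The 4 genes of the list that were not called were POU2AF1 (0.14), MCL1 (0.64), ZBTB20 (-0.92) and CD27, which had 0 UMIs in the members. POU2AF1, a coactivator of immunoglobulin gene transcription, was at 4.41 and 3.47 UMIs per 10000 in the members of pigs 1 and 2 and at 3.44 and 3.51 in JCHAIN-low B barcodes, and its sign turned when UMIs of all genes were used as library size without further scaling (-1.28).

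By log2 fold change, the 10 highest named genes were TNFRSF17, CCR10, CERCAM, CADPS2, TLCD4, TAF7L, MEIG1, MSC, TGFBR3 and AQP3. AQP3, a water and glycerol channel, had 238 UMIs in the members and rose by 6.17 (SE 0.21). TLCD4 had 198 UMIs, between 1.83 and 6.77 per 10000 by library, and rose by 7.13 (SE 0.55). MSC, a basic helix-loop-helix repressor, had 29 UMIs and rose by 6.51 (SE 0.52). CERCAM (9 UMIs in members, 2 in JCHAIN-low B), MEIG1 (12 and 6), TGFBR3 (6 and 4) and TAF7L (3 and 1) rested on very few molecules.

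Most measured genes of the secretory pathway were called higher, with exceptions in each list. For entry into the ER, 18 of 24 translocation and signal peptide genes were higher and 0 lower (median log2 fold change 2.56). SEC11C, a catalytic subunit of the signal peptidase, rose by 5.13 (SE 0.16), whereas its paralog SEC11A was not called (0.29). SSR4, of the translocon-associated protein complex, had the highest level of the list, 71.0 and 70.2 UMIs per 10000 in PP, 73.2 and 59.9 in whole ileum, and 88.0 and 61.0 in non-PP, and rose by 3.90 (SE 0.15). No JCHAIN-low B library exceeded 4.97. RRBP1, which binds ribosomes to the ER, rose by 4.18 (SE 0.22). Of the 6 subunits of the signal recognition particle that were measured, SRP14 was called (1.13), and SRP19 (0.95), SRP9 (0.90), SRP68 (0.78), SRP72 (-0.09) and SRP54 (-0.23) were not.

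For N-glycosylation, 12 of 13 genes were higher and 0 lower (median 2.08). RPN1, RPN2, DDOST and OSTC, subunits of the oligosaccharyltransferase, rose by 3.26, 3.00, 3.10 and 3.07. The catalytic subunits STT3A (2.65, SE 0.16) and STT3B (1.97, SE 0.36) both rose, and DPM1, which makes the mannose donor, was the gene not called (-0.10).

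Folding and disulfide genes gave 25 of 27 higher and 0 lower (median 3.20). TXNDC5, a protein disulfide isomerase, rose most, by 6.08 (SE 0.20), from 0.192 and 0.177 UMIs per 10000 in the JCHAIN-low B barcodes of the 2 pigs to 13.8 and 11.8 in the members. FKBP11, a prolyl isomerase of secretory tissues, was at 39.0 and 32.9 in PP, 38.7 and 33.2 in whole ileum and 47.4 and 37.7 in non-PP, and rose by 5.77 (SE 0.17). PRDX4, an ER peroxiredoxin that drives disulfide formation, rose by 5.50 (SE 0.15). HSPA5 (BiP), the HSP70 of the ER, rose by 2.40 (SE 0.16) from 8.07 and 8.08 to 40.2 and 46.4, and CALR rose by 1.98 (SE 0.14). The oxidases ERO1A (0.90) and ERO1B (0.27) were the genes not called.

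In ER-associated degradation 14 of 15 genes were higher (median 2.91), led by HM13 (4.17), the signal peptide peptidase, and SELENOS (3.92), and HERPUD1 was the most abundant at 26.4 and 22.8 UMIs per 10000. UFD1, a partner of the p97 segregase that also works outside the ER, was not called (-0.79). In ER to Golgi transport 17 of 22 genes were higher and 0 lower (median 2.14). LMAN1, the cargo receptor ERGIC-53, rose by 4.54 (SE 0.15). Among COPII coat genes SEC24A rose by 3.76 and SEC24D by 3.12, while SEC13 (0.88) and SEC31A (0.50) were not called, and SEC24C had 0 UMIs in the members.

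**Figure D3:**
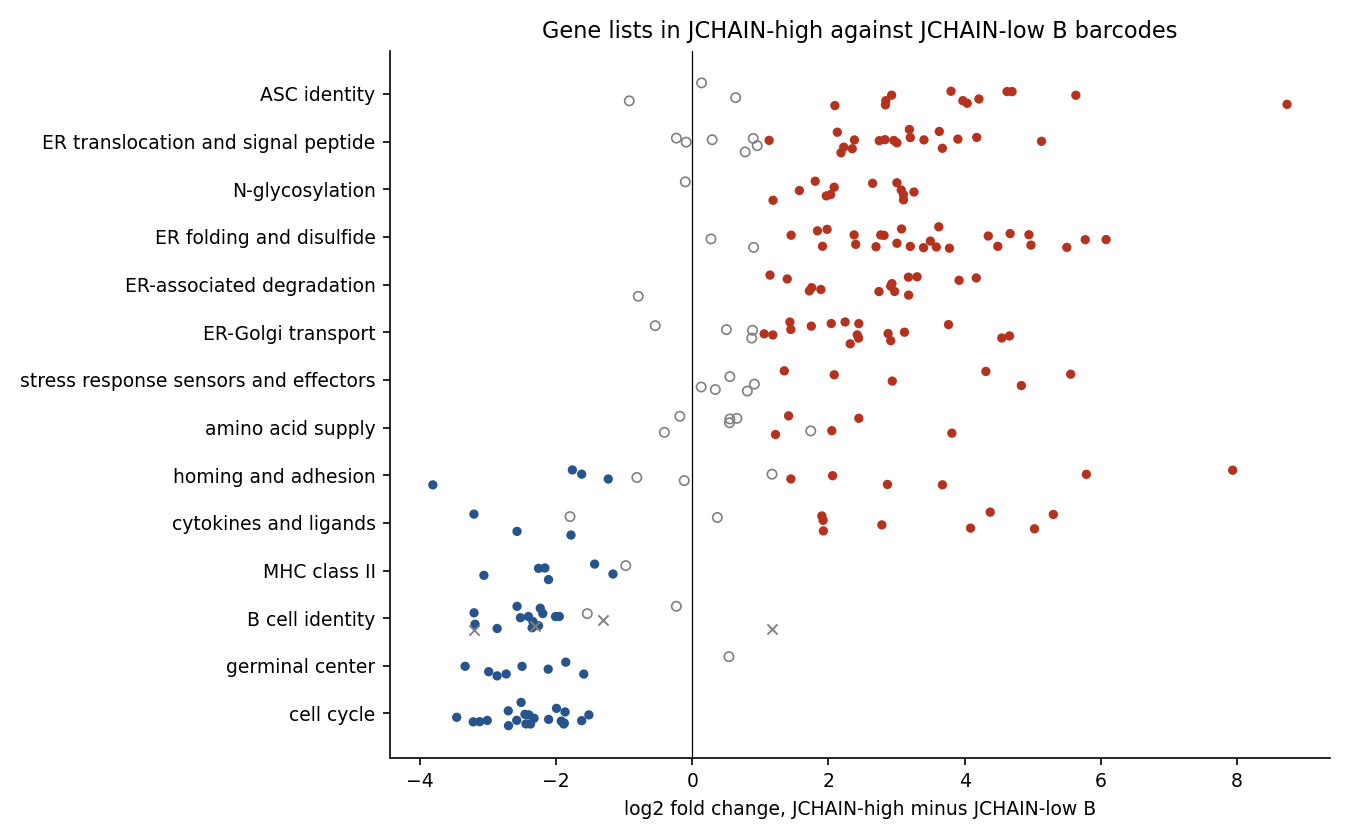
Log2 fold change of each listed gene in JCHAIN-high against JCHAIN-low B barcodes (x axis) by gene list (rows). Filled points were called (red higher, blue lower), open points were tested and not called, crosses are the B gate genes that were not tested, and genes with 0 UMIs in the members are not drawn. The medians of the secretory lists lie to the right of 0 and those of the B cell, germinal center and cell cycle lists to the left, with 1 or 2 genes of the translocation, N-glycosylation, degradation, ER to Golgi, B cell and germinal center lists on the other side of 0.

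Sensors and effectors of ER and integrated stress responses gave 6 of 11 higher and 0 lower (median 1.35). ERN1 (IRE1), which splices XBP1 mRNA, rose by 5.56 (SE 0.46) and EIF2AK3 (PERK) by 2.08 (SE 0.20), whereas ATF6 was at 0.13 (SE 0.31, 18 UMIs) and not called. FICD, which switches BiP off and on by AMPylation, rose by 4.31 (SE 0.26). NUPR1, a stress-induced chromatin protein, was at 23.7 and 38.5 UMIs per 10000 in PP, 25.4 and 29.4 in whole ileum and 12.6 and 11.3 in non-PP, and rose by 4.83 (SE 0.31). The highest JCHAIN-low B library was at 1.36, so the groups did not overlap. ATF4, the transcription factor downstream of PERK, rose by 1.35 (SE 0.13), a sign that turned to -0.07 with library size over all genes without scaling. Its target DDIT3 (CHOP) was not called (0.91, adjusted p = 0.000407, -0.52 with the unscaled library size), nor were PPP1R15A (0.34), TRIB3 (0.81) and ASNS (0.55).

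Of 11 amino acid supply genes 5 were higher and 0 lower (median 1.22). SLC7A11, of the cystine-glutamate exchanger, rose by 3.81 (SE 0.62, 15 UMIs), SLC1A5 by 2.45 (SE 0.20) and SLC3A2 by 2.05 (SE 0.21). SLC7A5 (1.41) and SLC38A2 (1.22) were called but turned sign without scaling (-0.02 and -0.20).

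Receptors for tissue homing split in both directions, with 6 of 14 genes higher and 4 lower. CCR10, the receptor for CCL28 of mucosal epithelia, was at 4.56 and 6.63 UMIs per 10000 in PP, 7.97 and 7.13 in whole ileum and 3.87 and 10.3 in non-PP, against at most 0.0335 in any JCHAIN-low B library, and rose by 7.94 (SE 0.27). It was detected in 70.4% of members and 0.296% of T barcodes. CCR9, the receptor for CCL25 of the small bowel, was far less frequent, with 30 UMIs in 7.48% of members against 23.5% of T barcodes. Its level in the members, 0.223 to 0.967 UMIs per 10000, overlapped the 0.247 to 0.653 of near-empty barcodes of up to 50 UMIs and exceeded it in 2 of 6 libraries, so CCR9 was not above background. The test against JCHAIN-low B barcodes, which were gated on 0 CD3E, called it (2.87, SE 0.28). The integrin chains that form α4β7 rose together, ITGB7 by 3.67 (SE 0.19) and ITGA4 by 2.06 (SE 0.16). CCR2 rose by 5.79 (SE 0.45, 46 UMIs) and GPR183, an oxysterol receptor, by 1.45 (SE 0.21). Among the genes that fell were the chemokine receptors of lymphoid tissue, with CCR7 at -3.81 (SE 0.51), CXCR4 at -1.62 (SE 0.15) and CXCR5 at -1.23 (SE 0.32). CXCR5 was not called when any library other than whole ileum pig 2 was left out (adjusted p = 0.0598 to 0.137). The list had 2 genes lower without PP pig 2 or without non-PP pig 2.

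Of 14 cytokine and ligand genes 8 were higher and 4 lower (median 1.91). CD274, which encodes PD-L1, rose by 5.30 (SE 0.36) with 70 UMIs in the members, CFD, complement factor D, by 5.03 (SE 0.29), LGALS3BP by 4.37 (SE 0.28) and TNFSF10, which encodes TRAIL, by 4.09 (SE 0.17). CFD was at 5.28 and 9.34 UMIs per 10000 in PP, 9.34 and 9.10 in whole ileum and 20.3 and 19.5 in non-PP, with both non-PP values above the other 4. Those non-PP values rest on 3 and 12 members, and the difference was not tested. LTB (-2.57), IL10 (-1.78) and EBI3 (-3.21, 1 UMI) fell, though IL10 was not called without PP pig 1 or without non-PP pig 2 (adjusted p = 0.0560 to 0.131). LTA had 0 UMIs in the members and was at least 5.18-fold lower.

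Of 15 tested B cell identity genes 0 were higher and 13 lower. They were led by PAX5 (-3.20, SE 0.26), the factor that fixes B cell fate, SPIB (-3.19, SE 0.25) and BACH2 (-2.87, SE 0.52), which represses PRDM1. The median of -2.31 was taken over 19 genes, which included the 4 untested gate genes. JCHAIN-low B barcodes were required to hold B cell genes and the members were not, so this list compares a gated with an ungated group. IL4R (-0.23) and FCER2 (-1.54, 3 UMIs) were not called. PAX5 was detected in 3.74% of members and 36.9% of JCHAIN-low B barcodes. Genes of the gate are given as values because the gate chose the comparison group, and those given did not move alike. MS4A1 (CD20) was at 0.935 and 1.23 UMIs per 10000 in the members of the pigs against 10.3 and 9.92, and CD79B at 6.28 and 5.34 against 13.5 and 14.6, whereas CD79A, of the B cell receptor complex, was at 4.01 and 2.55 against 1.42 and 1.36.

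Of 9 germinal center genes 8 were lower and 0 higher (median -2.50), among them BCL6 (-1.86, SE 0.25), the repressor that germinal center B cells depend on, and MYBL1 (-3.34, SE 0.28). All 21 cell cycle genes tested were lower (median -2.40). By library they summed to 16.4 to 38.0 UMIs per 10000 in the members and 25.4 to 47.0 in T barcodes. The sums were 107.0 to 143.3 in JCHAIN-low B barcodes and 30.3 to 88.1 in near-empty barcodes. In the members TOP2A, PCLAF, UBE2C and HMGB2 were below near-empty barcodes in all 6 libraries. TOP2A, needed to separate replicated chromosomes, was at 1.00 and 0.464 UMIs per 10000 in PP, 0.0916 and 0.519 in whole ileum and 0 and 0.256 in non-PP, against at least 2.82 in every JCHAIN-low B library. Of 7 MHC class II genes 6 were lower and 0 higher (median -2.11). CD74, the invariant chain, was the most abundant at 37.2 and 26.6 and fell by 1.16 on the log2 scale, and SLA-DQB1 missed the fold limit (-0.98). In the members CD74 was below the level of near-empty barcodes in all 6 libraries, and SLA-DQB1 in all but non-PP pig 1. All 10 of the lowest named genes had 0 UMIs in the members. They were CDC6, LTA, NEIL3, EEPD1, TROAP, INCENP, CALD1, SNX4, CBX2 and CENPK. With a floor of 3 counts over the group, CDC6, which licenses replication origins, was at least 10.2-fold lower and CBX2 at least 2.81-fold lower. CENPK and CALD1 were not called without some of the libraries, CENPK in 2 of 6 cases and CALD1 in 4 of 6.

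Without the library labelled whole ileum pig 1 this comparison called 1939 genes, of which 1865 were among the 2230. Of the 19 gene lists 16 gave the same counts in both directions, while N-glycosylation gave 11 higher, homing 7 higher and 3 lower, and cytokines and ligands 7 higher and 4 lower. Of 69 genes named here and called higher, 47 stood above near-empty barcodes in all 6 libraries and 8 in at most 3, namely CERCAM, CCR9, CD3D, CD3G, SLC7A11, TAF7L, CST3 and CCL5. When all UMIs set the library size with no further scaling, the median of all genes moved from -0.22 to -1.67. Of the called list members that were higher, 9 turned sign there, namely SRP14, ALG2, DERL2, UBE2J1, SEC23B, COPB1, ATF4, SLC7A5 and SLC38A2. Among these, ALG2 was not called without PP pig 2, whole ileum pig 1 or whole ileum pig 2 (adjusted p = 0.0658 to 0.283), and COPB1 fell short of the fold limit without PP pig 1 or whole ileum pig 2.

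The most similar barcodes were 222 JCHAIN-intermediate ones, with 1% to under 10% JCHAIN and a median of 7017 UMIs. Since both classes were cut from a single range of JCHAIN share, they are ranges rather than types. Of 10107 genes 86 (0.851%) were called in the same fit, 53 (0.524%) higher and 33 (0.327%) lower in the members. NUPR1 had the largest rise among called genes, at 3.13 to 5.22 UMIs per 10000 in the JCHAIN-intermediate barcodes of the 6 libraries against 11.3 to 38.5 in the members (log2 fold change 2.93, SE 0.30, adjusted p = 0.0022), and was detected in 36.0% and 87.1%. TNFRSF17 rose by 2.09 (SE 0.18), from 39.6% of barcodes to 74.1%. CST3, which encodes the secreted protease inhibitor cystatin C, rose by 1.91 (SE 0.22), although its level in the members, 1.93 to 9.89 UMIs per 10000, exceeded that of near-empty barcodes in only 3 of 6 libraries. SORT1, a sorting receptor, rose by 1.91 (SE 0.31) and TMEM41B, an ER membrane scramblase, by 1.73 (SE 0.35). XBP1 did not pass the fold limit (0.81, SE 0.16, adjusted p = 0.0347) and turned sign without scaling (-0.15). PRDM1 (0.46, adjusted p = 0.443) and IRF4 (0.13) were not called.

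The stress list gave 3 of 11 higher and 0 lower against this class, NUPR1, ATF4 (1.15, SE 0.13) and DDIT3 (1.28, SE 0.16). Among ER genes SSR4 (1.28), SEC11C (1.03), DNAJB9 (1.21), FKBP11 (1.09), ERP44 (1.08), PRDX4 (1.04), FKBP2 (1.04), HERPUD1 (1.34), EDEM3 (1.06) and ERLEC1 (1.01) rose, which was 2 of 24 translocation, 5 of 27 folding and 3 of 15 degradation genes with 0 lower in each list. None of the 13 N-glycosylation or 22 ER to Golgi genes was called (medians 0.31 and 0.30), and the major chaperones HSPA5 (0.49), HSP90B1 (0.11) and CALR (0.09) were not. CCR10 (1.04), SLAMF7 (1.42), CFD (1.41) and XCL1 (1.45), a chemokine of cytotoxic lymphocytes, rose, though XCL1 turned to -0.13 with the threshold at 20% JCHAIN and was below near-empty barcodes in all 6 libraries.

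Of 21 cell cycle genes 4 were lower in the members, 0 were higher and 17 were not called (median -1.30). Those called were UBE2C (-1.90, SE 0.24), PCLAF (-1.66, SE 0.28), TOP2A (-1.62, SE 0.30) and HMGB2 (-1.08, SE 0.23), and none of the 4 was called without whole ileum pig 1 (adjusted p = 0.110 to 0.351). TOP2A was detected in 7.82% of members, 19.8% of JCHAIN-intermediate and 28.8% of JCHAIN-low B barcodes. S1PR1, the receptor that lets lymphocytes leave tissue, had 0 UMIs in the members and 32 in the JCHAIN-intermediate barcodes, at least 8.21-fold lower. RPP30 (-2.72, 3 UMIs), ZNF862 (-2.59, 4 UMIs), POC1A (-2.58, 6 UMIs) and KCNAB2 (-2.45, 4 UMIs) were the next lowest, and LTB fell as well (-1.63, SE 0.27). None of the B cell identity genes other than LTB was called, and the median of the 19 was -0.04. Of 9 germinal center, 7 MHC class II, 11 amino acid supply, 10 T cell, 11 epithelial and 7 stromal genes 0 were called in either direction.

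This comparison leaned on the library labelled whole ileum pig 1. Without it 4 genes were called, namely TNFRSF17 (1.96, adjusted p = 0.0142), NUPR1 (2.91, adjusted p = 0.0311), CST3 (1.87, adjusted p = 0.0311) and HERPUD1 (1.25, adjusted p = 0.0481). The counts by list were then 1 of 16 ASC identity, 1 of 15 degradation and 1 of 11 stress genes higher, and 0 in the translocation, folding, homing, cytokine, cell cycle and B cell identity lists. All 86 genes kept their direction there and 65 stayed beyond a log2 fold change of 1. Without PP pig 2 the count was 39. Of the 31 called genes named here, 27 lost the call when at least 1 of the 6 libraries was left out, the exceptions being those same 4, and EDEM3 and XCL1 lost it whichever library was left out.

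Members differed among themselves in the unnamed identifiers. ENSSSCG00000037141 made up 15.6% and ENSSSCG00000037775 7.91% of all their UMIs, and a member carried almost always only 1 of them. Counting a member as led by an identifier that held at least 80% of the pair's UMIs, where the pair had at least 5 UMIs, 197 were led by ENSSSCG00000037141, 91 by ENSSSCG00000037775 and 6 by neither, so 98.0% had a single leader. With at least 20 UMIs of the pair required the counts were 194, 91 and 2, and 7 members held fewer. The leader took a median of 21.1% of UMIs in the first set and 30.2% in the second, while the other identifier took a median of 0.0359% and 0.0264%. The files do not pair these identifiers with names, and this grouping was chosen after the values were seen.

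**Figure D4:**
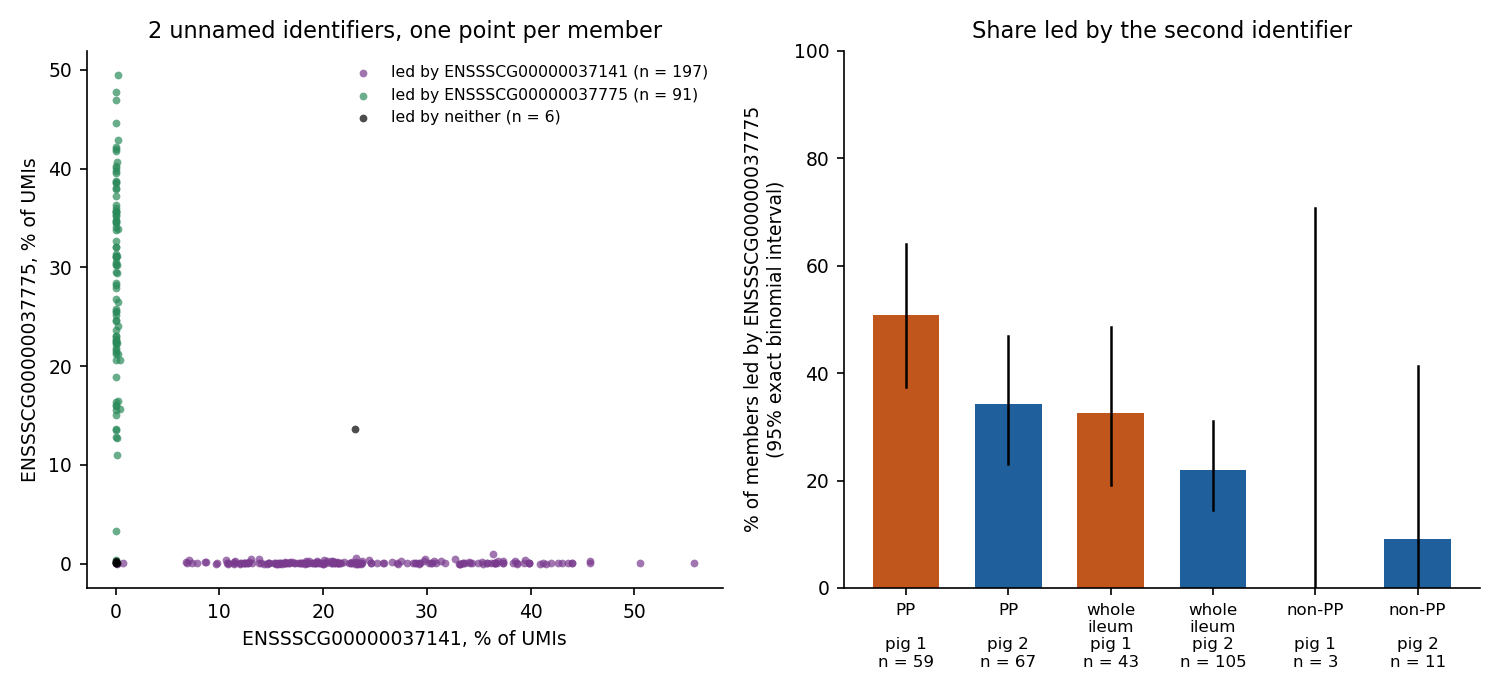
Left, percent of UMIs from ENSSSCG00000037775 (y axis) against ENSSSCG00000037141 (x axis) for each member, coloured by leading identifier, so that points lie along the axes. Right, percent of members with a leader that were led by ENSSSCG00000037775 in each library with exact binomial 95% intervals, from 50.8% in PP pig 1 to 0% of 3 in non-PP pig 1.

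The share led by ENSSSCG00000037775 was 50.8% in PP pig 1, 34.3% in PP pig 2, 32.6% in whole ileum pig 1, 21.9% in whole ileum pig 2, 0% of 3 in non-PP pig 1 and 9.09% of 11 in non-PP pig 2. In each pig as labelled PP had the highest share and non-PP the lowest, but the non-PP intervals reached 70.8% and 41.3%. The order in pig 1 includes whole ileum pig 1, which went against its label. Named genes were compared between both sets of members with the same edgeR test on sums per pig. Of 1966 genes 0 (0%) were called and 112 had an unadjusted p below 0.05. At this depth no difference was detectable among the genes tested in this fit, and no call was made without whole ileum pig 1 either. The count depended on the design. With the pig as a block 2 genes were called, HSP70.2 (-2.12) and CCL5 (-1.07), both lower in the members led by ENSSSCG00000037775 (adjusted p = 0.0487 each), 8 were called with no filter on low counts, 4 without whole ileum pig 2 and 1 without non-PP pig 2. HSP70.2 is named here after its values were seen. CCL5 was below near-empty barcodes in all 6 libraries, and the libraries entered the sets unequally. Non-PP pigs 1 and 2 gave 3 and 10 members to the first set and 0 and 1 to the second, and their near-empty barcodes held 159.5 and 140.2 CCL5 UMIs per 10000 against 60.7 and 68.7 in PP. The cytotoxic genes GNLY and GZMB were also lower in the second set where they were called, with no filter on low counts and without whole ileum pig 2. The part of near-empty levels in these calls was not tested.

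At the 80% limit a second pair of unnamed identifiers behaved alike, with 100 members led by the first, 190 by the second and 4 by neither. At a limit of 95% the pairs differed, since 96.9% of members had a leader in the first pair and 77.9% in the second. In the second pair the leaders at 80% took a median of 41.3% and 4.90% of UMIs. JCHAIN had a median of 14.9% of UMIs in the first set and 21.8% in the second. Per 100 named UMIs the medians were 68.2 and 66.5. Both sets had been cut at the same JCHAIN share of all UMIs, which the leaders enter. These medians therefore cannot show whether JCHAIN differed between the sets, and neither measure was tested. The pairs combined in all 4 ways, with 81 members led by the first of both, 114 by the first and the second, 19 by the second and the first, and 70 by the second of both.

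**Figure D5:**
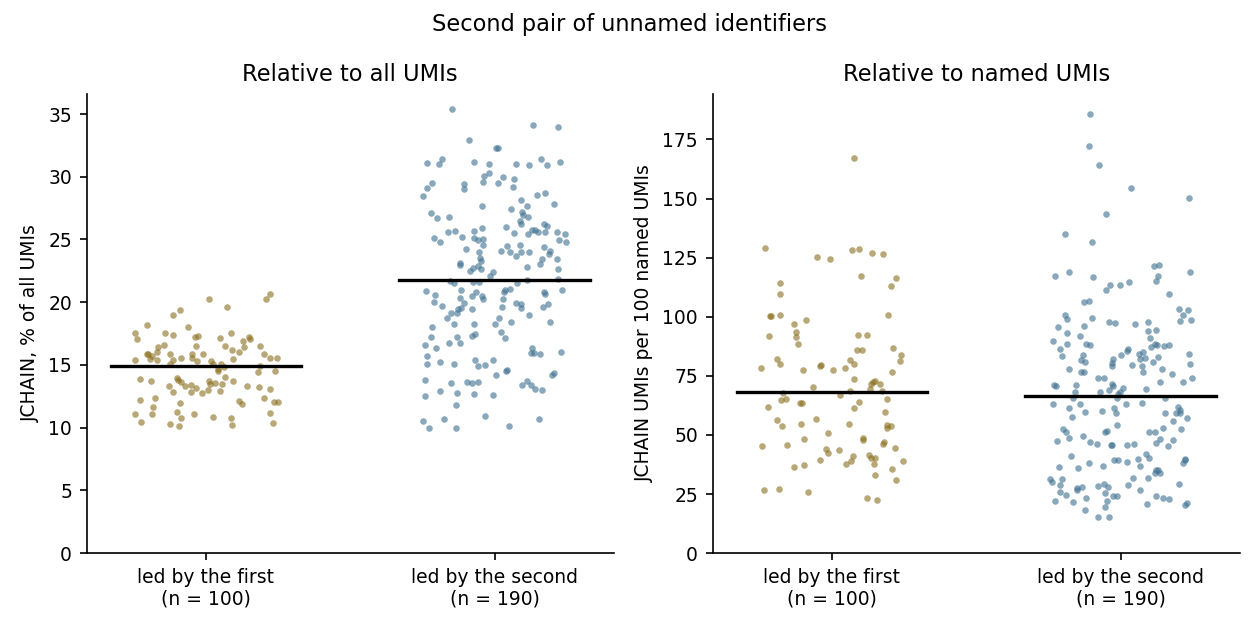
JCHAIN as percent of all UMIs (left) and as UMIs per 100 named UMIs (right) for members led by the first or the second identifier of the second pair, with 1 point per member and lines at the medians. The sets are offset on the left, with medians of 14.9% and 21.8%, and overlap on the right, with medians of 68.2 and 66.5.

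Genes were ranked by the Spearman correlation of their level with JCHAIN share over the 294 members among 1411 genes detected in at least 20% of them. These are descriptions, since members share libraries and JCHAIN share fell with UMIs (Spearman rho -0.43). The 5 highest were CST3 (0.28), NUPR1 (0.25), FAM3C (0.23), TXNDC5 (0.21) and FTL (0.20), against a median of -0.03 over all genes. CST3 was positive in each of the 4 PP and whole ileum libraries, from 0.23 to 0.39, whereas NUPR1 ranged from -0.07 in whole ileum pig 1 to 0.40 in whole ileum pig 2. Negative values were of like size, with EMC4 (-0.25), CAPZB (-0.22) and LRP10 (-0.21) the lowest, named here after their values were seen. All are weak.

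Transcripts of other lineages were present in the members. T cell markers summed to between 1.93 and 12.1 UMIs per 10000 in the members of a library, against 55.3 to 65.9 in T barcodes and 19.8 to 39.9 in near-empty barcodes of up to 50 UMIs. All 10 T cell markers were above 0, CD3E was the most abundant with 104 UMIs, and 62 members held a CD3E UMI. Since JCHAIN-low B barcodes were gated on 0 CD3E, the 5 of 9 T cell markers that were higher in the members, such as CD3G (2.17) and CD3D (2.14), compare a gated with an ungated group. Cytotoxic markers summed to between 15.8 (PP pig 2) and 158.5 (non-PP pig 2), with CCL5 the most abundant at 1245 UMIs, against 211.6 to 541.6 in T barcodes and 121.6 to 462.9 in near-empty barcodes, and 7 of 10 were higher than in JCHAIN-low B barcodes. CCL5 was detected in 82.3% of members, 52.4% of JCHAIN-low B and 89.2% of T barcodes, and its level was below that of near-empty barcodes in all 6 libraries. Their part in the result was not tested.

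Myeloid markers gave 1 of 13 higher, CST3, which made up 91.5% of the list's UMIs, while CSF1R, CD14 and CD68 had 1 UMI each and FLT3 had 0. Of 11 epithelial markers 0 were called, FABP6, the ileal bile acid binding protein, was the most abundant with 507 UMIs, and the list reached 63.8 UMIs per 10000 in non-PP pig 1, where near-empty barcodes held 340.2. Of 8 stromal markers COL1A1, COL1A2, COL6A1, DCN and VWF had 0 UMIs and 0 of the 7 tested were called. No member had a doublet score above 0.230. Thinned to 1000 named UMIs, members of pigs 1 and 2 held a median of 550.5 and 528 named genes, JCHAIN-intermediate barcodes 531.5 and 534, and JCHAIN-low B barcodes 523 and 526, so the breadth of their named transcriptome was close to that of other B lineage barcodes.

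In blood the same rule found 1 of 6443 barcodes in pig 1 and 2 of 6800 in pig 2, with JCHAIN of at most 13.8%. Together these 3 barcodes held 15 XBP1, 4 TNFRSF17, 1 PRDM1, 1 CCR10 and 0 MS4A1 UMIs, too few for a test against ileum. JCHAIN-intermediate barcodes were more frequent there, 45 and 49, so JCHAIN-high barcodes were 2.17% and 3.92% of blood barcodes with at least 1% JCHAIN, against 48.4% and 58.6% in PP, 59.7% and 65.3% in whole ileum and 3 of 12 and 44.4% in non-PP.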

How the data were processed

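Single-cell 3' RNA libraries of 8 samples were used. The authors deposited unfiltered UMI counts per gene and barcode, made with Cell Ranger 4.0.6 according to the submitters' processing notes, on Sus scrofa 11.1 with a modified Ensembl 97 annotation, with 4 sequencing runs per library in the labels. Of 25880 genes 17733 had a symbol in the matrices, 977 more took one from a name table and 7170 had none. Only 1 immunoglobulin gene, IGLV2-33, had a symbol. The written plan took immunoglobulin genes out of the denominator by name, so 18708 named genes without JCHAIN and IGLV2-33 were used in its place, and heavy and light chain classes were not analysed here. Some genes of the lists and of the gate are not reported here by name.

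Members, gene lists and tests were chosen with earlier results of these data known. T barcodes held CD3E, none of the 4 B cell gate genes (CD79A, CD79B, MS4A1 and 1 more), and under 1% JCHAIN. Counts were summed per pig for 4 classes (JCHAIN-high, JCHAIN-intermediate, JCHAIN-low B and T) and fitted together with edgeR 4.0.16 (TMM, filterByExpr, quasi-likelihood, Benjamini-Hochberg over all genes tested) in R 4.3.3. The fit was tested on simulated data, in which most genes changed by the fold limit and many changed beyond it were not called, so a gene not called is not shown to be unchanged. The replicate is the pig as labelled, with pooled dissections. The p-values rest on the spread between the 2 sums of a class, estimated over the 4 classes together and without pairing by pig. Since the pig 1 sums may not hold 1 animal alone, this spread is not purely one between animals. Same-numbered samples are labelled as the same animal, which Y-linked UMIs go against for whole ileum pig 1, and deviations from class means of the same pig correlated at 0.117 to 0.421 over 4352 genes. Doublets were scored with scanpy 1.11.5 and not removed. Named genes were JCHAIN, XBP1, PRDM1, members of the fixed lists, the 10 highest and 10 lowest calls against JCHAIN-low B and the 5 highest and 5 lowest against JCHAIN-intermediate with the same sign in both pigs, and the 5 genes with the highest correlation with JCHAIN share. Alternatives were DESeq2 1.42.0, other filters, library sizes and thresholds, the pig as a block, sums per library and leaving out each library. Genes of PP against non-PP members were not tested, since non-PP pig 1 held 3 members, under the minimum of 10.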

Additional observations from a re-analysis of the deposited data

Results flagged for a closer look

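The library labelled whole ileum pig 1 held 3208 DDX3Y UMIs, a Y-linked transcript outside the comparisons, above the 5, 1 and 0 UMIs in the other libraries of that pig. The cause was not tested.

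JCHAIN was found in near-empty barcodes of up to 50 UMIs at 0.241% of UMIs in PP pig 1, 0.412% in PP pig 2, 0.389% in whole ileum pig 1, 0.533% in whole ileum pig 2, 0.103% in non-PP pig 1 and 0.156% in non-PP pig 2, above the 0.0790% and 0.0764% in PBMC. The order of the 6 ileal values put PP and whole ileum above non-PP in both pigs as labelled, as for the share of members. In addition, 42 ileal barcodes of at least 500 UMIs reached 10% JCHAIN without passing the filters, of which 41 held too few genes, at a median of 1119.5 UMIs.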

How the results depend on the processing

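The PP minus non-PP difference in member share kept its sign under JCHAIN thresholds of 5% (0.785 points) and 20% (0.363), and from 0.579 to 0.820 with each library left out, but was -10.5 over B lineage barcodes. Against JCHAIN-low B, 2230 calls became 6115 (300 higher, 5815 lower) with library size over all genes and no TMM, an alternative added after the data were seen, and 1408 with sums per library, where 4005 genes passed the filter. DESeq2 called 2212 with another split (1375 higher, 837 lower), and leaving out libraries gave 1939 to 2212. Against JCHAIN-intermediate, 86 calls became 172 with DESeq2, 258 with no filter on low counts, 2410 with no TMM (3 higher, 2407 lower), 157 with sums per library, and 4 to 87 with each library left out. The split was 39 higher and 40 lower with library size over all genes, 47 and 75 at 20% JCHAIN and 38 and 37 without high doublet scores. Members led by 1 of the second pair fell from 98.6% to 77.9% when 95% of its UMIs were required.

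With the pig as a replicate block, calls were 2281 against JCHAIN-low B, 128 against JCHAIN-intermediate and 2 between members led by either unnamed identifier of the first pair, where the unblocked count was 0. That last comparison gave 8 calls with no filter and 0 to 4 with each library left out. Against JCHAIN-low B or JCHAIN-intermediate, ALG2 was the only named gene whose call changed with the block (1.17 against JCHAIN-low B, adjusted p = 0.0562).

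Without TMM, signs turned against JCHAIN-low B for the called genes ATF4 (-0.075), SLC7A5 (-0.016), SLC38A2 (-0.20), SRP14 (-0.30), ALG2 (-0.245), DERL2 (-0.29), UBE2J1 (-0.039), SEC23B (-0.245) and COPB1 (-0.38), and for POU2AF1 (-1.28), MCL1 (-0.78), DDIT3 (-0.52), SEC11A (-1.14), SRP19 (-0.48), SRP9 (-0.530), SRP68 (-0.66), ERO1A (-0.531), ERO1B (-1.16), SEC13 (-0.54), SEC31A (-0.94), ATF6 (-1.30), PPP1R15A (-1.09), TRIB3 (-0.64) and ASNS (-0.88), which were not called. Against JCHAIN-intermediate they turned for XBP1 (-0.15), PRDM1 (-0.50), IRF4 (-0.84), HSPA5 (-0.48), HSP90B1 (-0.87) and CALR (-0.875), none of them called. At 20% JCHAIN they turned for POU2AF1 (-0.088), ATF6 (-1.085) and ASNS (-0.295) against JCHAIN-low B and for XCL1 (-0.13), HSP90B1 (-0.19) and CALR (-0.39) against JCHAIN-intermediate. There, 15 named genes against JCHAIN-low B and 12 against JCHAIN-intermediate kept their sign but lost the call. Against JCHAIN-intermediate the same held for 6 with library size over all genes, 7 without high doublet scores and 8 with sums per library. SRP72 and DPM1 turned to 0.048 and 0.042 with DESeq2 and to 0.013 and 0.020 with sums per library, where CALR against JCHAIN-intermediate turned to -0.018. With a library or a pig left out, values crossed 0 for genes that were not called with all libraries, SRP9 (-0.17 to 1.72), SRP72 (-0.33 to 0.050), DPM1 (-0.27 to 0.021), ATF6 (-0.064 to 0.32) and TRIB3 (-1.12 to 1.30) against JCHAIN-low B, and IRF4 (-0.19 to 0.57), HSP90B1 (-0.33 to 0.47) and CALR (-0.15 to 0.24) against JCHAIN-intermediate. Of these, TRIB3 was called without PP pig 1 (1.25, edgeR adjusted p = 0.0483). The causes were not tested. Non-PP and blood held too few members for a test of genes, and leaving out a whole pig gave fold changes but no test.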
